A study of Mus musculus with 12 samples.

Results

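The genes described here encode subunits and assembly factors of respiratory complexes I, II and III, of ATP synthase (complex V) and of the electron carrier cytochrome c. Members were all genes whose single symbol in the platform annotation starts with Nduf, Sdha, Sdhb, Sdhc, Sdhd, Uqcr or Atp5, or is Cyc1 or Cycs, each read by the probe set with the highest mean over the 12 arrays. The rule found 79 of the 18194 genes on the array. They comprise 6 core and 28 accessory subunits of complex I, 8 complex I assembly factors, the related pair Ndufa4 and Ndufa4l2, 4 subunits and 4 assembly factors of complex II, 9 genes of complex III with Cyc1, Cycs, and 5 F1 and 12 Fo or stalk subunits of complex V. Of the 79 members, 78 had a mean signal above the median of all values, 5.67 on the log2 scale. The exception was Ndufb4, a membrane-arm accessory subunit, whose probe set had a mean of 3.99. Ndufa11 and Ndufs6 were read by probe sets that carry several symbols and are not members.

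The study compared gene expression in the developing heart with and without Nos3, the gene of endothelial nitric oxide synthase. Ventricles were dissected at 14.5 days post coitum from CD1 embryos with intact Nos3 (WT) and from Nos3-/- embryos of strain B6.129P2-Nos3tm1unc/J (KO), which carry the disrupted allele in every cell. Each of the 4 groups, WT and KO left ventricle (LV) and WT and KO right ventricle (RV), had 3 Affymetrix arrays, each made from 100 ng RNA of a pool of 15 to 30 embryos. Every WT pool was CD1 and every KO pool was of the other strain, so the Nos3 allele and the strain cannot be told apart in any comparison of WT with KO. The p-values measure the spread between pools.

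Complex I takes electrons from NADH, complex II takes them from succinate as part of the citric acid cycle, and both pass them to ubiquinone. Complex III hands them on to cytochrome c, and ATP synthase uses the proton gradient that complexes I, III and IV build. All subunits of complex II are nuclear-encoded, whereas complexes I, III and V also hold subunits encoded by mitochondrial DNA, so most members are imported into the organelle and assembled with partners made there. In the fetal heart mitochondria mature and oxidative metabolism gains weight as development goes on.

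The 12 arrays correlated with each other at 0.983 to 0.9977 over all genes, and their medians ran from 5.57 to 5.74. Nos3 read 8.30 to 8.39 in WT LV, 8.37 to 8.94 in WT RV, 7.86 to 8.02 in KO LV and 7.77 to 8.23 in KO RV, and whether its probe set lies in the disrupted stretch was not examined. The poly-A controls, bacterial transcripts added before labelling, had a mean of 8.89 to 8.94 in WT LV, 8.06 to 8.47 in KO LV and 7.35 to 8.37 in KO RV. In WT RV they read 8.05, 8.13 and 8.96, so replicate 3 stood apart from its group. All 10 cardiomyocyte markers had group means above the median of all values in every group.

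In the left ventricle, transcripts of the respiratory complexes were lower in KO than in WT over most of the member list. Of the 79 members 41 (51.9%) fell and 0 rose at an adjusted p under 0.05, the threshold for a call throughout, where 12.3% of all 18194 genes were called lower and 18.6% higher. With the mean of the poly-A controls on each array as a term in the limma fit 8 members (10.1%) were called lower, where 4.31% of all genes were. The median difference, KO minus WT, was -0.29 on the log2 scale over the members and -0.01 over all genes, and with the control term it was -0.18 over the members. Members ranged from -1.08 to 0.22, and 71 of 79 were below 0. In 60 members (75.9%) all 3 KO arrays lay below all 3 WT arrays, where 20.6% of all genes did so. In 2 members, Sdha and Ndufa3, all KO arrays lay above all WT arrays, against 23.8% of all genes. The 8 calls with the control term were Ndufa6, Ndufa8, Ndufaf4, Ndufaf5, Sdhc, Sdhd, Uqcrq and Cyc1, all among the 41. By role they were 2 of the 16 called accessory subunits and 2 of the 7 called assembly factors of complex I, both called subunits of complex II, and 2 of 5 in complex III. None of the 2 called core subunits of complex I, the 3 called assembly factors of complex II or the 5 called genes of complex V kept its call in that fit. In tissue RNA, fewer cells of a type and less RNA per cell cannot be told apart.

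**Figure D1:**
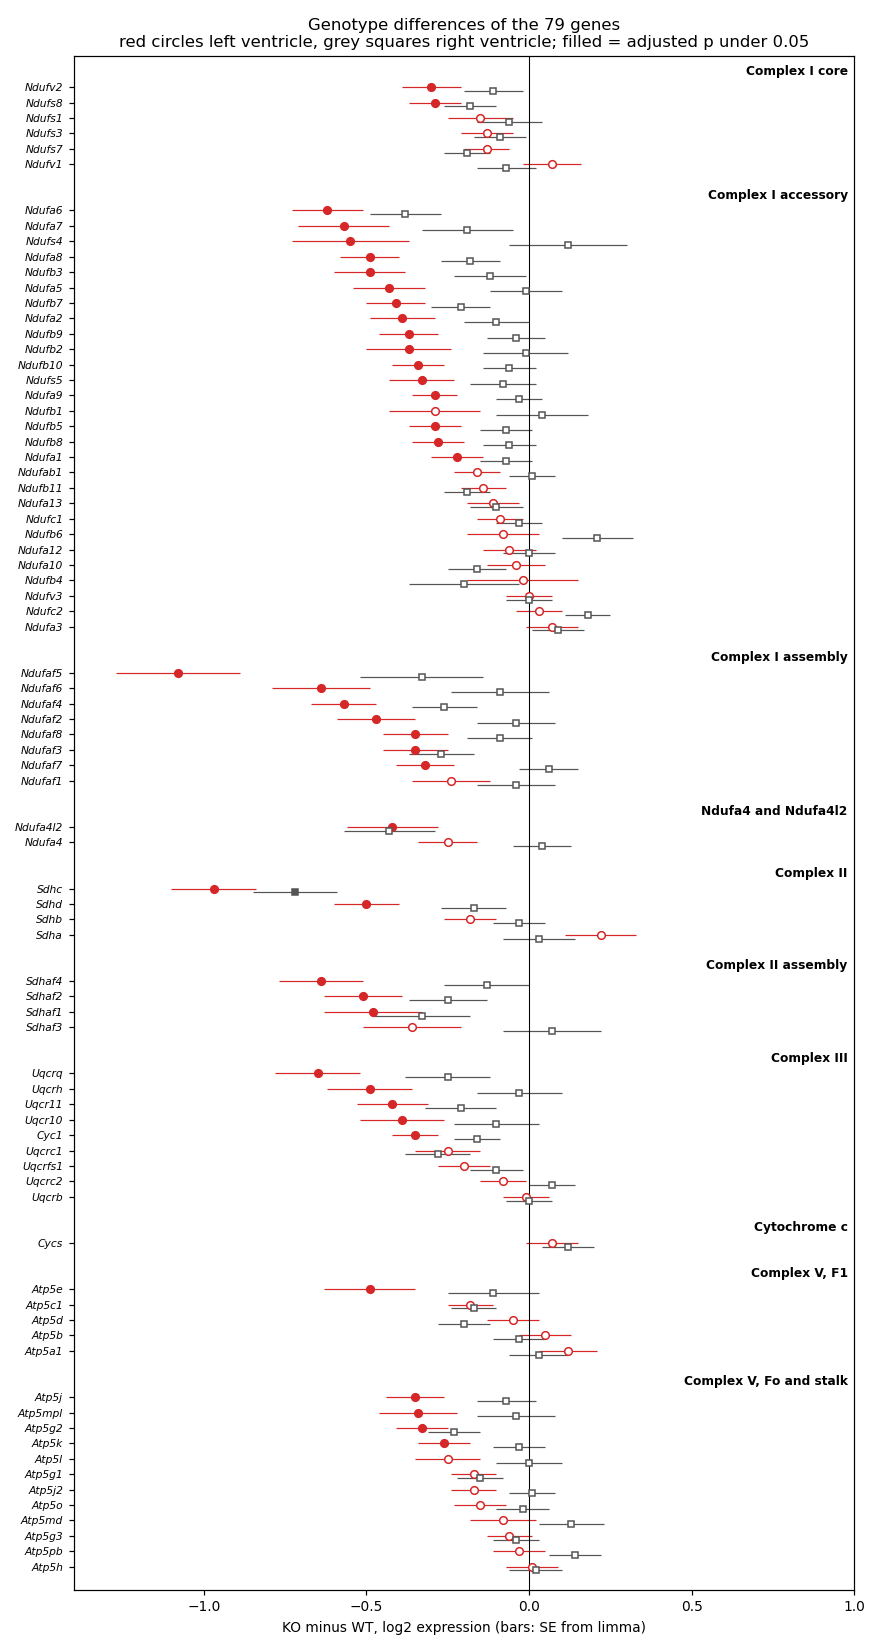
Difference between KO and WT (log2 expression, horizontal axis) of each of the 79 genes, sorted within its role, in the left ventricle (red circles) and the right ventricle (grey squares). Bars are standard errors from limma and filled symbols are called genes. In the left ventricle 41 symbols are filled, all left of 0, and in the right ventricle 1 is filled (Sdhc).

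The core subunits of complex I, which carry the flavin and the iron-sulfur clusters, had the smallest median difference within that complex. Of the 6 core genes 2 fell in the left ventricle, Ndufv2 and Ndufs8, and the median difference was -0.14. With the control term the median was -0.17, against -0.18 for the accessory subunits, so these 2 roles then hardly differed. Ndufv2, an iron-sulfur subunit of the NADH-oxidising module, read 13.70, 13.63 and 13.66 in WT LV and 13.35, 13.34 and 13.39 in KO LV. The LV groups were well separated, with a difference of -0.30 (SE 0.09, n = 3 arrays per group, adjusted p = 0.0169 by limma). In RV Ndufv2 read 13.61, 13.58 and 13.84 on the WT arrays and 13.49, 13.57 and 13.63 on the KO arrays, and these groups overlapped. Ndufs8, which holds iron-sulfur clusters near the ubiquinone site, fell by 0.29 (SE 0.08, adjusted p = 0.0128). The flavin-binding subunit Ndufv1 had a difference of 0.07 (adjusted p = 0.571), and its further sets differed by 0.12 and -0.17, neither called. A further set of Ndufs7, 1451312_at, read 12.25, 12.23 and 12.37 in WT LV and 12.04, 12.01 and 12.04 in KO LV. It was called lower (-0.25, adjusted p = 0.0266 over all probe sets), against -0.13 for the set in use. The count of core genes that fell thus depends on the probe set, as for the accessory gene Ndufb6 (1434057_at, -0.35, adjusted p = 0.0357).

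Among the 28 accessory subunits of complex I, which surround the core and are needed for its stability, 16 fell and the median difference was -0.29. The called genes were Ndufa1, Ndufa2, Ndufa5, Ndufa6, Ndufa7, Ndufa8, Ndufa9, Ndufb2, Ndufb3, Ndufb5, Ndufb7, Ndufb8, Ndufb9, Ndufb10, Ndufs4 and Ndufs5. They include subunits of the peripheral arm, such as Ndufa9 and Ndufs4, and of the membrane arm, such as Ndufb8 and Ndufb10. Of the 6 fits that left out an LV array, 0 called Ndufa1 and 1 called Ndufb2. The largest fall was that of Ndufa6, a LYR-motif subunit that anchors an acyl carrier protein on the complex. Its values were 12.64, 12.81 and 12.72 in WT LV and 12.18, 12.07 and 12.06 in KO LV, with no overlap and a difference of -0.62 (SE 0.11, adjusted p = 0.00134). Its RV values were 12.57, 12.58 and 12.86 on the WT arrays and 12.20, 12.14 and 12.52 on the KO arrays, again with no overlap. Ndufs4, loss of which causes a Leigh-like disease in mice, read 11.69, 11.74 and 11.61 in WT LV and 11.08, 11.12 and 11.19 in KO LV. The difference was -0.55 (SE 0.18, adjusted p = 0.0334), and in the right ventricle the WT values spread from 11.09 to 11.89 and the KO values from 11.34 to 11.97. Its LV call was lost in each of the 6 fits that left out an LV array, and with the control term the difference was -0.14 (adjusted p = 0.525). At the other end of the accessory list, Ndufa3 differed by 0.07 and Ndufv3 read 13.25 in both LV groups (SD 0.05 and 0.02, n = 3).

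The assembly factors of complex I, which help to build it and are absent from the finished enzyme, nearly all fell. Of the 8 factors 7 fell, all but Ndufaf1, and the median difference was -0.41, against 18 of 34 and -0.29 for the core and accessory subunits together. With the control term the medians were -0.26 for the factors and -0.18 for those subunits, and no test compared the lists. Ndufaf5, which modifies an arginine of the core subunit Ndufs7 in human cells, had the largest fall of all members. Its values were 10.23, 10.09 and 10.17 in WT LV and 9.08, 8.99 and 9.17 in KO LV, a difference of -1.08 (SE 0.19, adjusted p = 0.00119). The WT RV arrays read 9.71, 9.45 and 10.38 and the KO RV arrays 9.38, 9.31 and 9.86, so the RV groups overlapped and replicate 3 was the highest of both. Ndufaf6 fell by 0.64 (SE 0.15, adjusted p = 0.00558) in the left ventricle. Ndufaf3 and Ndufaf4, partners in building the ubiquinone-reducing module, differed by -0.35 (adjusted p = 0.0189) and -0.57 (adjusted p = 0.000917). Ndufaf2, Ndufaf7 and Ndufaf8, the last of which stabilises Ndufaf5 in human cells, differed by -0.47, -0.32 and -0.35. Ndufaf1 differed by -0.24 (adjusted p = 0.136), although its 3 KO values, 9.45 to 9.51, lay just below its WT values, 9.53 to 9.94.

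Ndufa4, named after complex I but now assigned to cytochrome c oxidase, and its hypoxia-inducible relative Ndufa4l2 differed between genotypes as follows. Ndufa4 read 13.82, 13.79 and 13.73 in WT LV and 13.48, 13.59 and 13.52 in KO LV. The groups did not overlap and the difference of -0.25 missed the threshold (SE 0.09, adjusted p = 0.0524). In RV Ndufa4 read 13.73, 13.65 and 13.92 on the WT arrays and 13.72, 13.77 and 13.93 on the KO arrays, and the groups overlapped. Ndufa4l2 read 7.43, 7.39 and 8.0 in WT LV and 7.20, 7.14 and 7.22 in KO LV, a difference of -0.42 (SE 0.14, adjusted p = 0.0341). WT replicate 3 was the highest of these 6 values, and the call held in 2 of the 6 fits that left out an LV array. In RV Ndufa4l2 read 7.59, 7.46 and 7.63 on the WT arrays and 6.98, 7.28 and 7.13 on the KO arrays, with no overlap, and its difference of -0.43 had an adjusted p of 0.0725.

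**Figure D2:**
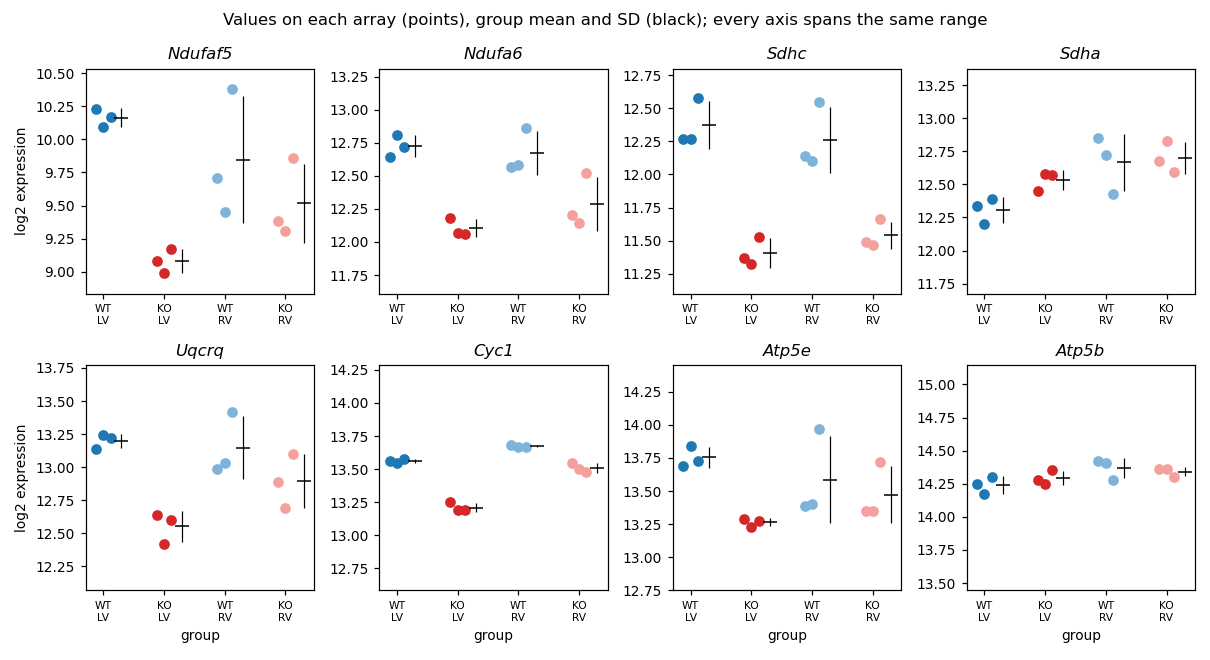
Log2 expression (vertical axis) of 8 genes on each array by group, with the group mean and SD in black. Every panel spans the same log2 range. The KO LV points lie apart from the WT LV points for Ndufaf5, Ndufa6, Sdhc, Uqcrq, Cyc1 and Atp5e, whereas for Sdha they lie above and for Atp5b the groups overlap.

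In complex II, succinate dehydrogenase, both membrane anchors fell in the left ventricle. Sdhc, an anchor subunit that takes part in binding ubiquinone and haem, read 12.27, 12.27 and 12.58 in WT LV and 11.37, 11.32 and 11.53 in KO LV. In the right ventricle it read 12.14, 12.10 and 12.55 on the WT arrays and 11.49, 11.47 and 11.66 on the KO arrays. No KO array reached the lowest WT array in either ventricle, and the differences were -0.97 in LV (SE 0.13, adjusted p = 0.000173) and -0.72 in RV (SE 0.13, adjusted p = 0.00365). Sdhd, the other anchor, read 12.92, 12.96 and 13.06 in WT LV and 12.55, 12.51 and 12.38 in KO LV. It fell by 0.50 (SE 0.10, adjusted p = 0.00191) in LV, and its RV values, 12.84, 12.81 and 13.11 in WT against 12.68, 12.75 and 12.83 in KO, overlapped.

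Neither catalytic subunit of complex II was called. Sdha, the flavoprotein that oxidises succinate, read 12.34, 12.20 and 12.39 in WT LV and 12.45, 12.58 and 12.57 in KO LV. Its KO values were the higher ones, and the difference of 0.22 missed the threshold (SE 0.11, adjusted p = 0.143). In the right ventricle Sdha read 12.85, 12.72 and 12.43 on the WT arrays and 12.68, 12.83 and 12.59 on the KO arrays, and the groups overlapped. Sdhb, the iron-sulfur subunit, read 13.15, 13.13 and 13.29 in WT LV and 13.00, 12.97 and 13.07 in KO LV, a difference of -0.18 (SE 0.08, adjusted p = 0.104). In RV it read 13.29, 13.35 and 13.34 on the WT arrays and 13.31, 13.34 and 13.25 on the KO arrays, with overlap.

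Of the 4 complex II assembly factors 3 fell in the left ventricle, with a median of -0.50 over all 4. Sdhaf4, which helps flavinated Sdha join Sdhb, read 10.99, 11.06 and 10.90 in WT LV and 10.38, 10.34 and 10.31 in KO LV. The groups were far apart relative to their spread, with a difference of -0.64 (SE 0.13, adjusted p = 0.00319). In RV the WT values were 10.65, 10.51 and 11.06 and the KO values 10.51, 10.47 and 10.86, and they overlapped. Sdhaf2, needed to attach the flavin to Sdha, differed by -0.51 (adjusted p = 0.00512), and Sdhaf1, which helps to insert the iron-sulfur clusters of Sdhb, by -0.48 (adjusted p = 0.0298). Sdhaf1 was called in 1 of the 6 fits that left out an LV array. Sdhaf3 differed by -0.36 (adjusted p = 0.0766). Over the assembly factors of complexes I and II together 10 of 12 fell, with a median of -0.48, and over the 65 subunits and cytochrome c 30 fell, with a median of -0.22. With the control term 2 of the 10 assembly factors kept their call, Ndufaf4 and Ndufaf5, and the median over the 12 was -0.26. Of the 30 called subunits 6 kept theirs, and the median over the 65 was -0.16. In that fit Sdhaf4 differed by -0.39 (adjusted p = 0.0593) and Sdhaf1 by -0.21 (adjusted p = 0.396). The mean signals of the 12 assembly factors, 8.85 (Sdhaf3) to 11.25 (Ndufaf4), all lay below the members' median signal of 13.13. The part of signal in the gap between the lists was not tested.

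In complex III 4 small accessory subunits and cytochrome c1 fell. Of 9 genes 5 fell, Uqcr10, Uqcr11, Uqcrh, Uqcrq and Cyc1, and the median difference was -0.35. Of these, Uqcr10 was called in 0 of the 6 fits that left out an LV array, differed by -0.14 with the control term (adjusted p = 0.469), and has 2 further probe sets that were higher in KO, given further on. Uqcrq, a small subunit next to cytochrome b, read 13.14, 13.24 and 13.22 in WT LV and 12.64, 12.42 and 12.60 in KO LV. The LV groups did not overlap and the difference was -0.65 (SE 0.13, adjusted p = 0.0021). In RV it read 12.99, 13.03 and 13.42 on the WT arrays and 12.89, 12.69 and 13.10 on the KO arrays, which overlapped.

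Cyc1, cytochrome c1, had narrow replicate ranges in every group. It read 13.56, 13.55 and 13.58 in WT LV and 13.25, 13.19 and 13.19 in KO LV, a difference of -0.35 (SE 0.07, adjusted p = 0.00253). In RV it read 13.68, 13.67 and 13.67 on the WT arrays and 13.55, 13.50 and 13.48 on the KO arrays, also without overlap, with a difference of -0.16 (SE 0.07, adjusted p = 0.169). The Rieske iron-sulfur protein Uqcrfs1 read 13.00, 12.92 and 13.09 in WT LV and 12.81, 12.74 and 12.85 in KO LV. Its KO values were all lower, and the difference of -0.20 missed the threshold (SE 0.08, adjusted p = 0.0606). In RV Uqcrfs1 read 13.11, 13.14 and 13.18 on the WT arrays and 13.04, 13.05 and 13.04 on the KO arrays, a difference of -0.10 (adjusted p = 0.434). The core proteins Uqcrc1 and Uqcrc2 differed by -0.25 (adjusted p = 0.0618) and -0.08 (adjusted p = 0.455), and Uqcrb by -0.01. A further set of Uqcrc2, 1428631_a_at, read 13.58, 13.56 and 13.59 in WT LV and 13.32, 13.14 and 13.23 in KO LV and was called lower (-0.35, adjusted p = 0.0073 over all probe sets), so whether this core protein's transcript counts as lower depends on the probe set.

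Cycs, the soluble carrier between complexes III and IV, was not called in any comparison. It read 13.85, 13.68 and 13.82 in WT LV and 13.88, 13.80 and 13.87 in KO LV, and the groups overlapped. The difference was 0.07 (SE 0.08, adjusted p = 0.555). In RV its KO values, 14.00, 13.93 and 13.99, all lay above its WT values, 13.85, 13.84 and 13.88, with a difference of 0.12 (adjusted p = 0.359).

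ATP synthase had the smallest share of called genes among the complexes with more than 4 members, 5 of 17, with a median difference of -0.17 in the left ventricle. In the F1 head, which makes the ATP, 1 of 5 genes fell and the median was -0.05. With the control term the median was -0.11 both in F1 and in the Fo and stalk subunits. That gene was Atp5e, subunit epsilon of the central stalk, which read 13.69, 13.84 and 13.73 in WT LV and 13.29, 13.23 and 13.27 in KO LV. The difference was -0.49 (SE 0.14, adjusted p = 0.0196). In RV it read 13.39, 13.40 and 13.97 on the WT arrays and 13.35, 13.35 and 13.72 on the KO arrays, where replicate 3 of each genotype was the highest and the groups overlapped. The subunits that form the catalytic ring, Atp5a1 and Atp5b, differed by 0.12 (adjusted p = 0.369) and 0.05 (adjusted p = 0.65), and Atp5c1, the rotating gamma subunit, by -0.18 (adjusted p = 0.0675). Atp5c1 has 2 probe sets. Over 21 other settings of the fit its LV difference ran from -0.55 to -0.17, and 4 of them called it.

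Of the 12 Fo and stalk subunits, which form the proton channel and hold the head in place, 4 fell, Atp5g2, Atp5j, Atp5k and Atp5mpl, with a median of -0.17. Atp5j, coupling factor 6 of the peripheral stalk, read 13.93, 13.99 and 13.99 in WT LV and 13.63, 13.64 and 13.60 in KO LV. The difference was -0.35 (SE 0.09, adjusted p = 0.0113), with no overlap. In RV it read 13.84, 13.86 and 14.03 on the WT arrays and 13.75, 13.76 and 14.02 on the KO arrays, with overlap. Atp5k and Atp5mpl, small subunits of the membrane part, differed by -0.26 and -0.34 (adjusted p = 0.025 and 0.0435). Each was called in 1 of the 6 fits that left out an LV array.

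Atp5g1, Atp5g2 and Atp5g3 encode the same mature c subunit of the rotor ring from 3 precursors. Atp5g2 read 13.12, 13.16 and 13.18 in WT LV and 12.84, 12.78 and 12.85 in KO LV, and fell by 0.33 (SE 0.08, adjusted p = 0.00709). Atp5g1 read 13.51, 13.47 and 13.58 in WT LV and 13.37, 13.32 and 13.37 in KO LV, a difference of -0.17 (adjusted p = 0.104). Atp5g3 read 14.33, 14.28 and 14.38 in WT LV and 14.25, 14.27 and 14.29 in KO LV, a difference of -0.06 (adjusted p = 0.566). The LV groups overlapped for Atp5g3 and not for the other two. In RV Atp5g2 read 12.99, 13.09 and 13.21 on the WT arrays and 12.83, 12.87 and 12.89 on the KO arrays, a difference of -0.23 (adjusted p = 0.0864). Atp5g1 read 13.69, 13.69 and 13.77 against 13.59, 13.55 and 13.57 (-0.15), and Atp5g3 14.39, 14.40 and 14.38 against 14.36, 14.36 and 14.34 (-0.04). For each of the 3 genes no KO RV array reached its lowest WT RV array, and none was called.

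The left-ventricle fall was spread over the arrays, and between the LV groups the labelling controls differed too. The median deviation of the 79 genes from their own means over the 12 arrays was 0.07, 0.06 and 0.09 in WT LV and -0.17, -0.21 and -0.19 in KO LV. Within KO LV the controls ran from 8.06 to 8.47 and the members' medians from -0.21 to -0.17. In the right ventricle the medians were 0.05, 0.02 and 0.19 in WT and -0.02, -0.03 and 0.07 in KO, and replicate 3 was the highest array of both groups in the members and in the controls. Replicates 1 and 2 of WT RV had controls of 8.05, just below the range of KO LV, and 8.13, within it. Replicates 1 and 2 of KO RV had the lowest of all, 7.35 and 7.90. The members' medians on these arrays were 0.05 and 0.02 in WT RV and -0.02 and -0.03 in KO RV. Those of the 12 assembly factors on replicates 1 to 3 were 0.03, -0.08 and 0.37 in WT RV and -0.09, -0.16 and 0.12 in KO RV. The part of labelling in the left-ventricle fall was not tested. With the control term 70 of 79 members, among them all 41 genes called without it, were below 0, and the 8 called genes differed by -0.75 to -0.36. Of the 41 genes 26 were called in every fit that left out 1 of the 12 arrays, and without KO LV replicate 2 the count was 27.

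**Figure D3:**
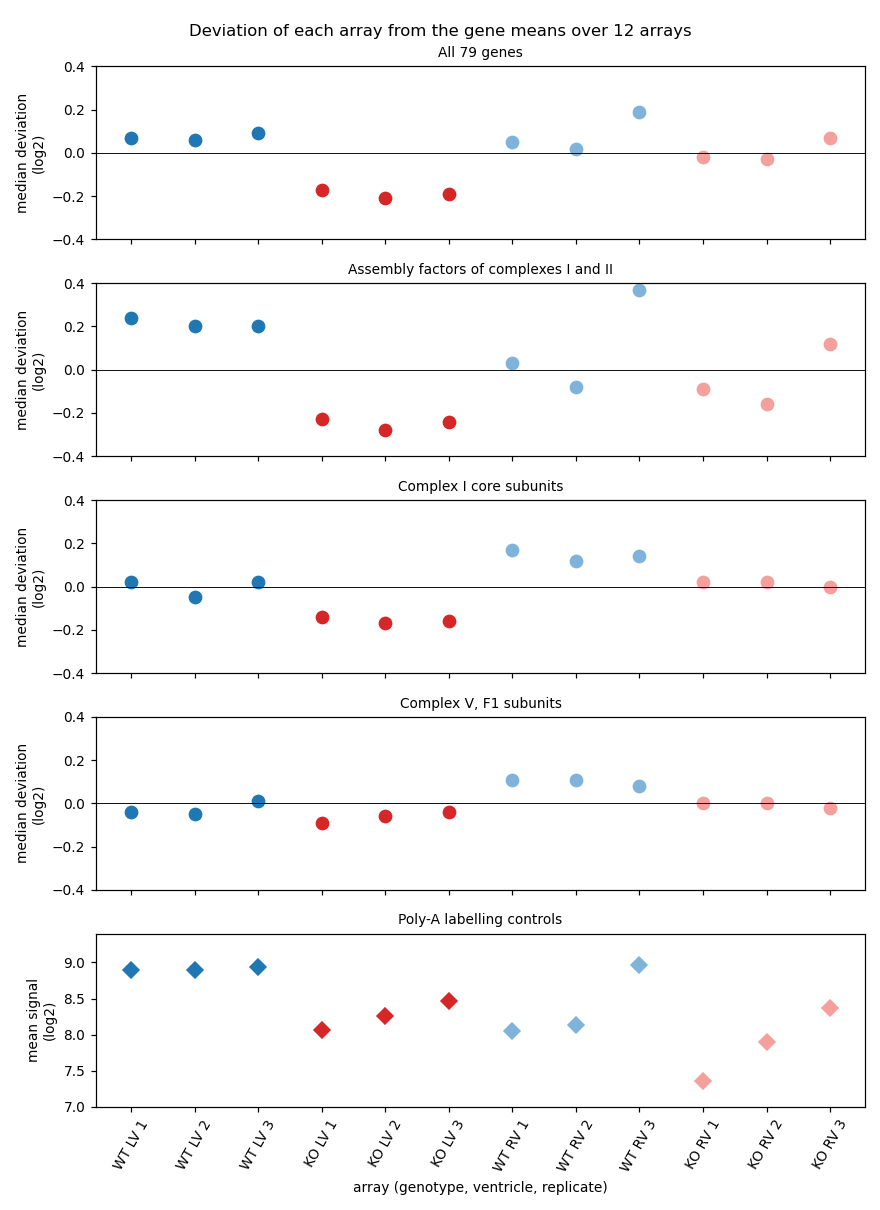
Median deviation from the gene mean (log2, vertical axes) on each of the 12 arrays for all 79 genes, the 12 assembly factors, the 6 complex I core subunits and the 5 F1 subunits, above the mean signal of the poly-A controls (log2). The 3 KO LV arrays are lowest for all 79 genes (-0.17 to -0.21), and WT RV replicate 3 is the highest (0.19) and has the highest control mean (8.96).

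The size of the fall also went with probe-set signal. The 40 members at or above the members' median signal, 13.13, held 15 called genes and a median difference of -0.17, and the 39 below it held 26 and -0.36. The part of signal compression at the top of the scale was not tested.

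Markers of cell types were read in the same LV groups, where 18.6% of all genes were called higher and 12.3% lower. The summed log2 level of 10 cardiomyocyte markers was 17.39 to 17.42 in WT LV and 17.54 to 17.62 in KO LV, with 2 of 10 higher (Myh6 and Myh7) and none lower. Macrophage markers summed to 10.14 to 10.28 and 11.13 to 11.33, with 5 of 6 higher, and endothelial markers to 11.60 to 11.81 and 12.20 to 12.37, with 4 of 6 higher. For smooth muscle the sums were 13.79 to 14.06 and 14.33 to 14.41, with 3 of 4 higher. Liver markers summed to 10.11 to 12.23 in WT LV and 8.60 to 9.92 in KO LV, with 2 of 7 lower, Alb and Afp, and 3 of 7 at or below the median of all values in KO LV. Erythroid markers summed to 14.60 to 14.76 and 14.89 to 15.15 (2 of 9 higher, 1 lower), and atrial markers to 15.54 to 15.60 and 15.81 to 15.88 (2 of 4 higher). The erythroid sum was mostly Hbb-y, with a WT LV mean of 14.46 against 10.70 for the next, Hba-x, and 6 of 9 erythroid markers were below 0. Fibroblast markers summed to 14.59 to 15.02 and 14.92 to 15.12 (1 of 6 higher, 1 lower), epicardial markers to 11.15 to 11.56 and 10.78 to 11.17 (1 of 5 lower), and skeletal muscle markers to 7.95 to 9.36 and 7.90 to 8.94 (1 of 5 lower). The called-higher counts of the cardiomyocyte, erythroid and fibroblast lists lay near the share of all genes. With the control term 5 of 5 called macrophage markers and 4 of 4 called endothelial markers kept their call, as did those of liver and epicardium. Of the cardiomyocyte calls 1 of 2 remained (Myh6), and of smooth muscle 2 of 3. The fibroblast rise remained and the fall did not. The atrial, erythroid and skeletal muscle calls were lost. The part of cell makeup in the members' difference was not tested.

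In the right ventricle the same comparison called 1 member. Sdhc fell, as given above, and 0 members rose, where 3.58% of all genes were called lower and 4.61% higher. At an unadjusted p under 0.05 there were 15 members. The median difference was -0.07 over the members and -0.04 over all genes, with 60 members below 0 and 18 above. All KO arrays lay below all WT arrays in 20 members (25.3%), against 17.6% of all genes, and above them in 4 members, Ndufc2, Uqcrc2, Cycs and Atp5pb, against 11.8% of all genes. Deviations of same-numbered RV arrays correlated at 0.11, 0.26 and 0.31. The first was hardly above the 0.09 of WT replicate 1 with KO replicate 2. With the replicate number as a block over all 12 arrays 3 members fell, where 5.19% of all genes were called lower. They were Sdhc (-0.72, adjusted p = 0.000217), Ndufa6 (-0.38, adjusted p = 0.0373) and Ndufaf3 (-0.27, adjusted p = 0.049). Without WT RV replicate 3 the call of Sdhc remained (-0.58, adjusted p = 0.0104) and the members' median was -0.01. In RV the macrophage sums were 10.17 to 10.36 in WT and 10.51 to 10.74 in KO, with 2 of 6 higher, and the endothelial sums 11.68 to 12.13 and 12.16 to 12.24, with 0 of 6 called. Erythroid markers had 3 of 9 lower, among them Alas2 (-1.22), and summed to 14.48 to 14.75 in WT and 14.79 to 15.01 in KO. That sum was again mostly Hbb-y, and 5 of 9 erythroid markers were below 0. Tagln of smooth muscle (2.22), Myh6 of cardiomyocytes (1.33) and the atrial Myl7 (0.40) were higher and the epicardial Tcf21 (-1.09) lower, each the 1 call of its list, and the liver, fibroblast and skeletal muscle lists had none. Without WT LV replicate 3, an array that enters the RV result through the shared spread, 3 members were called.

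The LV difference was below the RV difference in 68 of 79 members, but the test of that difference called none. For the interaction of genotype and ventricle, RV minus LV of KO minus WT, limma called 0 members, and 18 had an unadjusted p under 0.05. It called 0.022% of all genes, and the lowest adjusted p of a member was 0.314. The median interaction was 0.20 over the members and -0.06 over all genes, and 68 members were above 0. Of the 41 genes called in LV, 39 were below 0 in RV, with medians of -0.41 and -0.11.

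The interaction depended on replicate 3 of WT RV. Without it 12 members (15.2%) were called, all with a higher RV than LV difference, where 2.74% of all genes were called that way. They were Ndufa7, Ndufb2, Ndufs4, Ndufaf2, Ndufaf5, Ndufaf6, Sdhd, Sdhaf2, Sdhaf3, Sdhaf4, Uqcrh and Atp5e. The interaction was 1.02 for Ndufaf5 (adjusted p = 0.0237) and 0.89 for Ndufs4 (adjusted p = 0.0331). With that array the same genes had interactions of 0.75 and 0.67, both with an adjusted p of 0.314. That array has the highest control mean of the 12, and the part of labelling in its values was not tested.

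Between the ventricles of WT embryos no member was called. At an unadjusted p under 0.05 there were 6 members, the lowest adjusted p was 0.138 (Sdha), and 0.984% of all genes were called. The median difference, RV minus LV, was -0.01 over the members and 0.05 over all genes. In 12 members (15.2%) all RV arrays lay above all LV arrays, against 10.9% of all genes. Without WT RV replicate 3 there were 4 called members, where 9.53% of all genes were called. Ndufv1 (0.34, adjusted p = 0.0235) and Sdha (0.48, adjusted p = 0.0148) were then higher in RV, and Ndufaf5 (-0.58, adjusted p = 0.029) and Sdhaf4 (-0.40, adjusted p = 0.0464) lower.

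Between the ventricles of KO embryos nearly all members read higher in RV, though none was called. Of the 79 members 77 were above 0, and the exceptions were Ndufb4 and Ndufa4l2. The median difference was 0.19 over the members and 0.00 over all genes, and in 59 members (74.7%) all RV arrays lay above all LV arrays, against 9.24% of all genes. At an unadjusted p under 0.05 there were 31 members, the lowest adjusted p was 0.0657, and 1.14% of all genes were called. Cyc1 had that p, with a difference of 0.30 (SE 0.07). Ndufa9 followed with 0.29 (SE 0.07, adjusted p = 0.0961). Without WT RV replicate 3, which enters through the shared spread, Cyc1 was called (adjusted p = 0.0446). With the replicate number as a block over the arrays of all groups Ndufaf6 was called (0.50, adjusted p = 0.038). In that fit 0.791% of all genes were called higher in RV. Cell markers differed between the same groups. Macrophage markers summed to 11.13 to 11.33 in KO LV and 10.51 to 10.74 in KO RV, with 2 of 6 lower in RV (Csf1r, -0.69, and Cd68, -0.52), and fibroblast markers to 14.92 to 15.12 and 14.28 to 14.82, with 4 of 6 having all RV arrays below all LV arrays and 0 called. Of the atrial markers Myl7 was higher in RV (0.49) and Nppa lower (-0.61). The part of these markers' cells in the members' difference was not tested. This comparison shares its KO LV arrays with the LV genotype comparison, so the low KO LV values enter both.

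**Figure D4:**
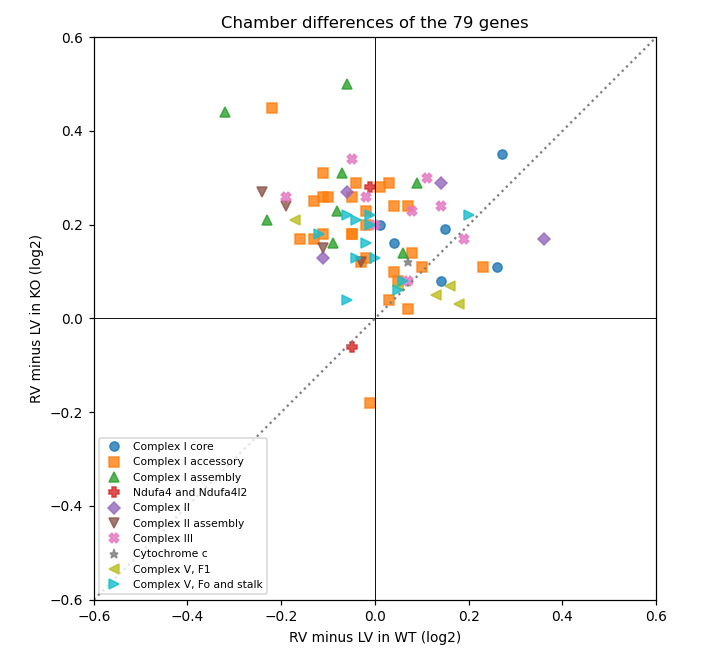
Difference between the ventricles, RV minus LV (log2), of the 79 genes in WT (horizontal axis) and in KO (vertical axis), by role. The dotted line marks equal differences. In KO 77 of 79 points lie above 0, with a median of 0.19, and in WT the points scatter around 0, with a median of -0.01.

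Other probe sets gave a second reading of many members. Of 155 probe sets that name a member, 65 further ones, for 41 genes, lay above the median of all values. In LV 26 of these were called lower and 3 higher, and 54 were below 0. In RV 0 were called lower and 3 higher. The second probe set of Sdhc read 10.08, 10.09 and 10.26 in WT LV and 9.70, 9.71 and 9.81 in KO LV, a difference of -0.40 (adjusted p = 0.00726). In RV it read 10.03, 9.95 and 10.18 on the WT arrays and 9.81, 9.89 and 9.82 on the KO arrays, a difference of -0.21 that was not called (adjusted p = 0.186).

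For 6 genes a further probe set read the other way by 0.2 or more. For Uqcr10, a small complex III subunit, the probe set in use, 1424364_a_at, read 13.41, 13.56 and 13.51 in WT LV and 13.16, 13.07 and 13.09 in KO LV and was called lower (-0.39, adjusted p = 0.0363 over genes). Adjusted over all probe sets, as are the p-values of further sets here, its p was 0.0543. Probe set 1434340_at read 4.85, 5.23 and 5.42 in WT LV and 8.57, 8.41 and 8.66 in KO LV, and 5.09, 5.09 and 5.82 in WT RV against 8.99, 8.76 and 9.57 in KO RV. All 6 KO arrays thus lay above all 6 WT arrays. Its difference was 3.38 in LV and 3.77 in RV, and that of 1434341_x_at was 2.20 and 2.76. For Ndufa12, a peripheral-arm subunit, the set in use read 13.24, 13.14 and 13.22 in WT LV and 13.18, 13.10 and 13.14 in KO LV, whereas 1455806_x_at read 12.81, 12.53 and 12.72 against 13.22, 13.22 and 13.23. The latter differed by 0.54 in LV and 0.51 in RV and was called higher in both (adjusted p = 0.00136 and 0.00477). A further set above the median, 1418814_s_at, was called lower in LV (-0.37, adjusted p = 0.017). The LV reading of Ndufa12 thus depends on the probe set. Whether these sets meet a sequence that differs between the strains was not tested.

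**Figure D5:**
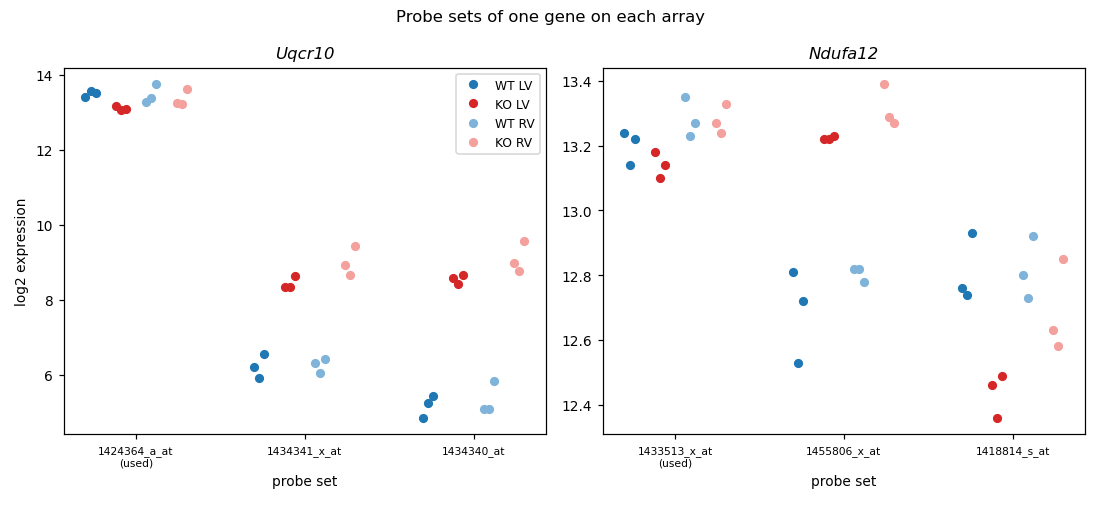
Log2 expression (vertical axis) on each array for the probe sets of Uqcr10 and Ndufa12 that lie above the median of all values, with the set in use marked. The 2 Uqcr10 sets not in use and 1455806_x_at of Ndufa12 read higher on every KO array than on every WT array, while the set in use overlaps for Ndufa12 and reads lower in KO LV for Uqcr10.

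The other 4 genes with such a set were Ndufc2, Atp5h, Atp5o and Atp5g1. For Ndufc2, a membrane-arm subunit, the set in use read 13.69, 13.59 and 13.65 in WT LV and 13.69, 13.63 and 13.70 in KO LV, a difference of 0.03 with overlap. Its set 1460506_s_at read 13.12, 13.16 and 13.15 in WT LV and 12.78, 12.82 and 12.87 in KO LV, a difference of -0.32 (adjusted p = 0.0302). For Atp5g1 the set 1444874_at, with a mean of 5.74 near the median of all values, read 6.0, 5.05 and 5.16 in WT LV and 6.22, 6.16 and 6.22 in KO LV. It was higher on every KO LV array and differed by 0.80 (adjusted p = 0.054), against -0.17 for the set in use.

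Atp5h and Atp5o encode subunits of the peripheral stalk. The set in use for Atp5h read 14.17, 14.03 and 14.08 in WT LV and 14.05, 14.14 and 14.12 in KO LV, a difference of 0.01 with overlap. Its set 1423676_at read 13.87, 13.97 and 13.90 in WT LV and 13.71, 13.67 and 13.73 in KO LV, a difference of -0.21 (adjusted p = 0.079) with no overlap. For Atp5o the sets disagreed in RV. The set in use read 13.95, 13.97 and 14.10 on the WT arrays and 13.92, 13.98 and 14.06 on the KO arrays (-0.02), and 1437164_x_at read 12.66, 12.70 and 13.02 against 13.01, 12.96 and 13.30 (0.30, adjusted p = 0.194). Both pairs of groups overlapped. The further sets of Atp5g1, Atp5h and Atp5o were not called.

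Genes that serve the same complexes but lie outside the naming rule were read from a list. Of 15 further assembly factors 10 fell in LV and 0 rose, with a median of -0.45, where 12.3% of all genes were called lower. Timmdc1, a membrane-arm assembly factor of complex I, fell by 1.67 in LV and by 1.39 in RV, and Ecsit, another, by 0.81 and 0.64. Uqcc1, an assembly factor of complex III, fell by 0.75 and 0.62, and Nubpl, which delivers iron-sulfur clusters to complex I, by 0.23 and 0.29. These 4 were the factors called in RV. With the control term 5 of the 10 LV calls remained, Foxred1, Ecsit, Timmdc1, Ttc19 and Uqcc1. Acad9, Atpaf2 and the ATP synthase inhibitor Atpif1 differed by -0.02, 0.10 and 0.02 in LV and were not called.

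Of 8 genes of ubiquinone synthesis 7 fell in LV, where 12.3% of all genes were called lower. With the control term 4 kept their call, Coq3, Coq5, Coq6 and Coq9. Of 19 carriers and coenzyme Q genes 9 fell in LV, 7 of them Coq genes, and 2 rose, Gpd2 (0.66) and Vdac1 (0.36), the latter not called with the control term (0.21). Coq3 and Coq9 differed by -0.77 and -0.69, and the electron-transfer flavoprotein subunits Etfa and Etfb by -0.50 and -0.58. The adenine nucleotide carriers Slc25a4 and Slc25a5 differed by -0.04 and 0.02. In RV Coq4 and Coq5 fell, and between the KO ventricles Etfa (0.36) and Coq9 (0.43) were higher in RV.

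In the citric acid cycle 4 of 12 genes fell in LV and 1 rose, where 12.3% of all genes were called lower and 18.6% higher. Suclg1, Idh3b, Fh1 and Idh3a differed by -0.51, -0.38, -0.37 and -0.29, and citrate synthase, Cs, by 0.38. Cs (0.21) and Idh3a (-0.27) lost their calls with the control term. Of 10 genes for organelle amount and shape 2 rose and 1 fell, near the shares of all genes. The mitofusins Mfn1 (0.49) and Mfn2 (0.41) rose, the import subunit Timm23 fell by 0.34, and the receptor Tomm20 differed by -0.02. Mfn1 kept its call with the control term, and Mfn2 and Timm23 did not.

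Regulators of mitochondrial genes went in both directions in LV, with 4 of 14 higher and 3 lower, against 18.6% and 12.3% of all genes. The nuclear receptor Esrrg rose by 0.99 and its relative Esrra fell by 0.57. The mitochondrial transcription factors Tfam and Tfb2m fell by 0.39 and 0.32, the mitochondrial RNA polymerase Polrmt rose by 0.37, and Gabpa and Pprc1 rose by 0.38 and 0.50. With the control term Esrrg, Esrra and Tfam kept their calls, and Polrmt (0.18), Gabpa (0.22), Pprc1 (0.37) and Tfb2m (-0.20) lost theirs. The coactivator Ppargc1a and the factor Nrf1 differed by -0.22 (adjusted p = 0.361) and -0.31 (adjusted p = 0.0799). In RV Esrrg was called (0.55, adjusted p = 0.0445).

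Promoters of the members were searched for the sites of factors that are known to bind respiratory genes. The window was 300 bases, 250 before and 50 after the start, from RefSeq on GRCm38.p6, which held 67 of the 79 members and 27025 genes in all. The NRF1 letters GCGCATGC, on either strand, lay in 11 members (16.4%) and in 3.05% of all promoters. The ETS letters of GABPA, CCGGAAG, lay in 19 members (28.4%) against 9.93%, the ERR letters AAGGTCA in 8 (11.9%) against 5.38%, and the YY1 letters ATGGCGGC in 7 (10.4%) against 2.60%. Matches of different motifs can overlap, since CCGGAAG ends in the letters with which AAGGTCA begins. Among the 33 members with a promoter that fell in LV, 7 held the NRF1 letters, 11 those of GABPA, 5 those of ERR and 6 those of YY1. Among the 34 others the counts were 4, 8, 3 and 1. A match is a description and shows no binding.

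The 250 bases before the start are shown for 3 genes that fell in LV and kept their call with the poly-A term, Ndufa6, Ndufa8 and Ndufaf4, and for 2 that were not called, Sdhb and Cycs, with the NRF1 letters in capitals. All 5 belong to the 11 members that hold a match, so a match in each was fixed by the choice of genes and says nothing about the call. Ndufaf5, the member with the largest fall, is also among the 11. Its 250 bases before the start hold no match and are not shown. The positions are Ndufa6 at chr15:82354292-82354541, minus strand, Ndufa8 at chr2:36049339-36049588, minus strand, Ndufaf4 at chr4:24897833-24898082, plus strand, Sdhb at chr4:140961021-140961270, plus strand, and Cycs at chr6:50566570-50566819, minus strand. In Ndufaf4 a pair of matches on opposite strands overlap, and in Ndufa8 the match ends at the base before the start.
Ndufa6: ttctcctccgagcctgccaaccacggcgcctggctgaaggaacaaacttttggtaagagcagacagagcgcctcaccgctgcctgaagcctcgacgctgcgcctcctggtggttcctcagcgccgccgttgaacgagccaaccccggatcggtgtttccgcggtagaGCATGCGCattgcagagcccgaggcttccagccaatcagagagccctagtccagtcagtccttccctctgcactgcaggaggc
Ndufa8: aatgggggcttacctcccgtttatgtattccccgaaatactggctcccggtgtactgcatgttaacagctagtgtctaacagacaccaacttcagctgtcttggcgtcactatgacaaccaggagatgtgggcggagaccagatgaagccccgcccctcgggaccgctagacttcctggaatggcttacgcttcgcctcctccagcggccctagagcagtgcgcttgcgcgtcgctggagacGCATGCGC
Ndufaf4: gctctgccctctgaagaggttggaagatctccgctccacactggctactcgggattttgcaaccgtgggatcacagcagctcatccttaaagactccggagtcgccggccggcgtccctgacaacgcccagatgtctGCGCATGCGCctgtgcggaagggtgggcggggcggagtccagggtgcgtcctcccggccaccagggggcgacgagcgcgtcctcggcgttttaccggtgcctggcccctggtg
Sdhb: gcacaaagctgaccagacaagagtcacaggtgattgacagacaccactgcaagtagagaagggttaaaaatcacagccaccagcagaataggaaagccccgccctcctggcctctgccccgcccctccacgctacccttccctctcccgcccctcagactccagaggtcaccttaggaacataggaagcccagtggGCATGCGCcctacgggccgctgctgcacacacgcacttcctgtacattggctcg
Cycs: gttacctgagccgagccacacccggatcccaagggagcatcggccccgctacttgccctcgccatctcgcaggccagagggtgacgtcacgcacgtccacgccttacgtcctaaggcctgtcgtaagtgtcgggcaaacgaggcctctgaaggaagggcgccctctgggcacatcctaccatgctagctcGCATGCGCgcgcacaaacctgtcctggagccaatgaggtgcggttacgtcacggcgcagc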

How the data were processed

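The authors deposited log2 values for 45101 probe sets on 12 arrays, summarised with RMA per the submitters' processing notes, with no version stated. RMA gives all arrays nearly the same distribution, so a change common to most genes could be masked. A genome build for the probe sets was not given in the sources used here. In the platform annotation 34958 probe sets carried 1 symbol, 932 several (left unnamed) and 9211 none. The IDs of 34754 were found in RefSeq GRCm38.p6, and 0 symbols changed. Where a gene had several probe sets (9012 genes), the set with the highest mean over the 12 arrays stood for it. The table held 0 unused sample columns.

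All 18194 genes were fitted with limma 3.58.1 in R 4.3.3 (lmFit and eBayes), with a mean for each of 4 groups of 3 arrays, and p-values were adjusted by Benjamini-Hochberg over all genes at a threshold of 0.05. The contrasts were KO minus WT in each ventricle, their interaction, and RV minus LV in each genotype. The fit was tested on simulated data. Tables were made with Python 3.11.15, numpy 2.4.6, pandas 2.3.3 and matplotlib 3.10.9. The members, role groups, lists, motifs and tests were chosen with earlier results of these data known. Every member may be named, and every array's value, in the ventricle concerned, is given for the called member with the largest change in each role group, the complex II genes, Cyc1, Cycs, Uqcrfs1, the isoform sets and members with probe sets that disagree. Ndufs4 and Sdhaf4 were added after their values were seen.

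Other settings were dim genes left out, quantile normalization once more, median centring, limma's trended and robust prior, weighted arrays, the replicate number as a block, the mean of a gene's probe sets, adjusted p under 0.01, the mean of 24 poly-A control probe sets as a term, each array left out, the compared groups alone and, added after seeing the data, each probe set on its own. The labels number replicates 1 to 3 in every group and do not say what a number shares. Deviations of same-numbered arrays from their group means correlated at 0.11, 0.26 and 0.31 between WT and KO in RV and at 0.21, 0.29 and 0.26 between the KO ventricles, so there the numbers were taken to pair the arrays. They correlated at 0.01, 0.14 and 0.42 in LV and at 0.23, -0.01 and 0.15 between the WT ventricles, where they were not. The block was fitted over the arrays of all groups together, so it also tied these arrays by their numbers. Its calls in RV and between the KO ventricles came from that fit, not from pairing within those groups alone. The number of arrays limits the precision.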

Additional observations from a re-analysis of the deposited data

Results flagged for a closer look

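Among probe sets of members with a mean above the median of all values that the comparisons do not use, 3 had every KO array above every WT array in both ventricles, by 0.5 or more. For Uqcr10, probe set 1434340_at was higher in KO by 3.38 in LV and 3.77 in RV (log2, limma over all probe sets, adjusted p = 4.48e-06 and 1.84e-06), with all 3 KO arrays above all 3 WT arrays in each ventricle, and 1434341_x_at by 2.20 and 2.76. For Ndufa12, 1455806_x_at was higher by 0.54 in LV and 0.51 in RV (adjusted p = 0.00136 and 0.00477), again with every KO array above every WT array. The sets in use differed by -0.39 and -0.10 for Uqcr10 and by -0.06 and 0.00 for Ndufa12. Groups of 3 arrays were not examined for single outlying values. A further unused set, Sdha 1433293_at, whose mean of 5.32 lies below the median of all values, read higher on every KO array of each ventricle, by 0.81 in LV and 1.10 in RV (adjusted p = 0.0345 and 0.0251).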

How the results depend on the processing

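The left-ventricle count of 41 was 8 with the poly-A term, 19 at an adjusted p under 0.01 and 27 to 46 with each array left out, lowest without KO_LV replicate 2. It was 35 with each probe set on its own, and 57 with median centring, which moved the median of all genes from -0.01 to -0.11 and that of the members to -0.38. Of the 41 genes 40 were below 0 in all 21 alternatives in which each gene was fitted again. The exception was Uqcr10, whose difference reversed with the mean of its probe sets, to 1.73 in LV and 2.14 in RV, because 2 of its 3 sets read the other way. The right-ventricle count of 1 was 2 without dim genes, 2 with median centring, 9 with a trended and robust prior (1 higher, 8 lower), 6 with array weights, 3 with the replicate block, 2 with the mean of probe sets (1 higher, 1 lower), 2 in the compared groups alone, and 1 to 3 with each array left out, 3 without WT_LV replicate 3 and 2 without WT_RV replicate 1 or KO_RV replicate 3. The interaction count of 0 was 8 with array weights and 0 to 12 with each array left out, 12 without WT_RV replicate 3. The count of 0 between WT ventricles was 6 with array weights (3 higher, 3 lower) and 0 to 4, 4 without WT_RV replicate 3. The count of 0 between KO ventricles was 1 without dim genes, 2 with median centring, 4 with a trended and robust prior, 9 with array weights, 1 with the replicate block, 1 with the mean of probe sets, 3 with the poly-A term (Ndufs4, Ndufaf5 and Ndufaf6) and 0 to 1 with each array left out. The replicate block gave 44 in LV and 0 for the interaction and between WT ventricles, and in RV and between KO ventricles it changed no call of a member beyond those named. Where no cause is named, it was not tested. Over all 5 comparisons 89 counts of calls stayed within 1.5 times the reported count and 25 did not. With 3 arrays a group, signal near the top of the scale and no detection calls used here, small differences could not be resolved.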
